A study of Homo sapiens with 18 samples.

Results

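The question was which parts of the transcriptome of senescent fibroblasts still differed after cells that had lost their mitochondria were given both acetate and mitochondrial DNA (mtDNA). IMR90 cells, an established line of human lung fibroblasts, were made senescent by X-ray irradiation with 20 Gy and form the group Sen (IR). In the group Sen (IR) + CCCP + mtDNA + acetate, called the combination here, the same irradiation was followed by mitochondrial removal with CCCP, an uncoupler, from day 1 for 48 h, by 20 mM sodium acetate from day 3 and by transfection of mtDNA on day 10 (10 μg for 500000 cells), with collection on day 12 in the acetate protocol. By the study's methods, this clearance was done in IMR90 fibroblasts that overexpress Parkin, in which CCCP induces mitophagy. The sample titles name Parkin for no group, and whether the Sen (IR) cells also overexpressed it is not given there. The start of acetate on day 3 is that of the acetate protocol, and the methods for mtDNA with acetate say every other day. Whether Sen (IR) cells received transfection reagent is not given in the sources used here. The comparison took 6 of the 18 libraries, 3 per group, and tested 16994 of the 57500 genes in the table, namely those that passed a filter on low counts. The remaining groups were proliferating cells (Prol) and irradiated cells given CCCP alone, CCCP with acetate, or CCCP with mtDNA, 3 libraries each. These last 3 are called CCCP alone, acetate alone and mtDNA alone, and all 4 groups enter as reference levels.

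Senescent cells stop dividing and secrete cytokines, chemokines, proteases and growth factors, together called the senescence-associated secretory phenotype (SASP). Mitochondria feed it along at least a pair of routes. Citrate exported from mitochondria is a source of acetyl-CoA for histone acetylation, which acetate can also supply, and mtDNA in the cytosol activates the sensor cGAS and its partner STING, which switch on NF-κB targets and interferon genes.

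Total counts of the 6 libraries ranged from 25013145 to 46224280. Levels are CPM, each count scaled to the library total after TMM normalization, and a difference is a log2 fold change, the combination minus Sen (IR), from edgeR's quasi-likelihood fit with Benjamini-Hochberg adjustment over all 16994 genes. Nothing in the labels says that the replicates were separate cultures, so p-values measure the spread between these libraries. The paper's legend for its heat map of cells without mitochondria, given acetate with or without mtDNA, states n = 3 independent experiments. Replicate 2 of the combination stood apart from the other two. Among 10429 genes with a mean of at least 5 CPM, 96 were over 2-fold higher in it than in both other replicates, against 0 for each of replicates 1 and 3, and so were 40 of the 53 interferon-stimulated genes, counted at any level. Some genes that were abundant in Sen (IR) and low in the combination were also highest in it: in combination replicates 1, 2 and 3 VCAM1 was at 13.3, 31.6 and 13.1 CPM, CCL2 at 2.45, 5.45 and 2.38 CPM and COL3A1 at 84.9, 169 and 94.4 CPM. The share of counts on mtDNA genes was highest there too (0.0640, 0.237 and 0.0624%), while C3 was at 1.42, 1.31 and 1.3 CPM. What set this library apart was not tested, and results that rest on it are given with and without it.

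The markers of the cell type were checked. Of 10 fibroblast genes, the summed level was 20811 to 25813 CPM in Sen (IR) and 5187 to 5995 CPM in the combination. Lower were 8, of which 5 at least 2-fold, and 1 was higher, with a median log2 fold change of -1.13. The lowest was COL3A1 at -4.39. The higher one was PDGFRA, a growth factor receptor, at 0.21, and its call was lost without combination replicate 3 or without Sen (IR) replicate 2 or 3. VIM, an intermediate filament protein, remained abundant at 2927, 3039 and 2784 CPM in the combination against 4369, 4339.8 and 3782 CPM in Sen (IR). PDGFRB, a receptor of fibroblasts, was at 129.7, 132 and 115 CPM in Sen (IR) against 122, 137 and 126 CPM in the combination, a log2 fold change of 0.03 ± 0.08 (SE, adjusted p = 0.792). Markers of epithelial, endothelial and blood cells summed to at most 5.54 CPM over 14 genes in any of the 6 libraries, with KRT5 at 0 in all 6. In bulk RNA, fewer cells of a type and less RNA per cell cannot be told apart.

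The combination differed from Sen (IR) across much of the transcriptome. Of 16994 genes, 5474 (32.2%) rose and 5889 (34.7%) fell, with the threshold set at an adjusted p of 0.05. Calls of at least 2-fold numbered 1480 higher (8.71%) and 2194 lower (12.9%). For 4762 genes (28%) the 95% interval of the log2 fold change lay inside -0.5 to 0.5, so these were alike within that margin. This was judged apart from the calls, so a gene can be both called and alike. The libraries of the groups did not overlap for 66.4% of genes. Counts of called list members below are to be read beside these shares.

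This split depends on how libraries are scaled. In limma on the deposited TPM, as log2(TPM + 1), 8038 genes were higher and 3597 lower, so 69.1% of calls were higher against 48.2% in the counts. The median of all genes moved from -0.04 to 0.19 with it, and the median of 8 of the 41 gene lists changed sign. With each library shifted to the same median, an alternative added after the data were seen, 44.2% of calls were higher. Where the balance of a list turned under log2(TPM + 1), its counts on that scale are given beside it.

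**Figure D1:**
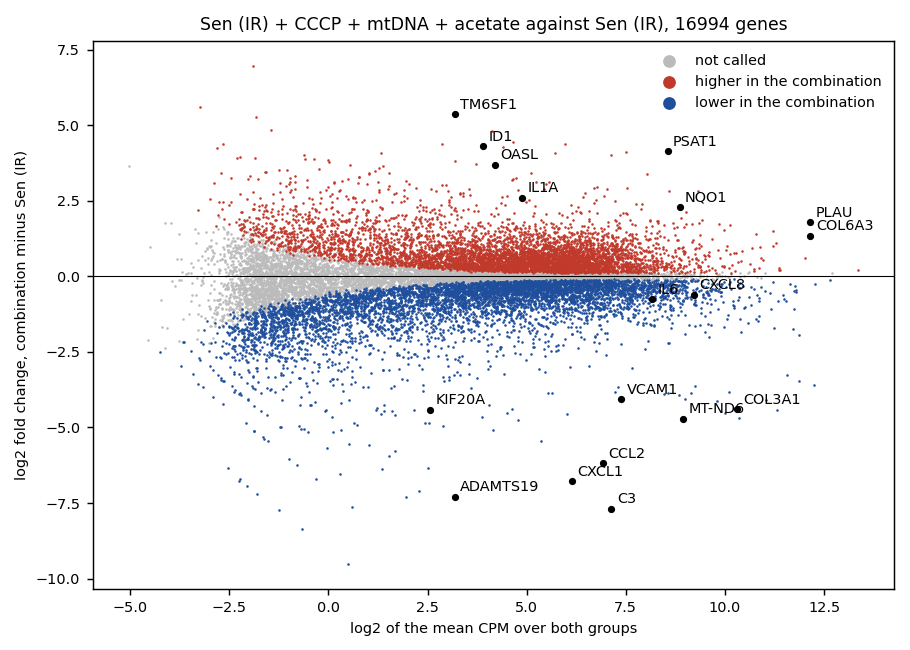
Each point is a gene, with the log2 of its mean CPM over both groups on the x axis and the log2 fold change of the combination against Sen (IR) on the y axis. Red and blue points passed an adjusted p of 0.05, 5474 higher and 5889 lower; C3 and CXCL1 lie far below 0 and PSAT1 far above, while IL6 and CXCL8 lie just under 0.

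The genes that fell furthest, among those with at least 5 CPM and no overlap of libraries, included complement, chemokine, collagen and mtDNA-encoded genes. C3, the central complement component (chr19:6677704-6730562, GRCh38), was at 294, 291 and 255 CPM in Sen (IR) and 1.42, 1.31 and 1.3 CPM in the combination, a log2 fold change of -7.69 ± 0.11 (SE, adjusted p = 1.7e-22). All 3 combination libraries were far below all 3 Sen (IR) libraries, and the mean was 0.479% of the Sen (IR) mean. SLCO2B1, an organic anion transporter, was at 7.84, 7.79 and 7.41 CPM in Sen (IR) and rested on 4 counts in all in the combination (log2 fold change -7.31). ADAMTS19, a secreted metalloproteinase, fell from 19.5, 18.6 and 16.2 CPM in Sen (IR) to 0.163, 0.082 and 0.07 CPM in the combination (log2 fold change -7.30). MRGPRX3, a G protein-coupled receptor, changed by -7.10 and APLN, the peptide apelin, by -4.96 on the same scale. The other falls of this set were CXCL1, CCL2 and CXCL6, COL5A3, the miR-146a host transcript MIR3142HG (-5.09) and the mitochondrial tRNA genes MT-TL1 (-6.35, or -7.43 without combination replicate 2) and MT-TN (-5.44, or -6.39 without it).

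The largest rises by the same rule mixed amino acid response genes with signalling genes. TM6SF1, a transmembrane protein, went from 0.352, 0.345 and 0.62 CPM to 18, 15.5 and 19.7 CPM, a log2 fold change of 5.35 ± 0.17 (SE, adjusted p = 8.2e-17). ID1, a BMP-induced inhibitor of basic helix-loop-helix factors, rose from 1.13, 1.61 and 1.72 CPM in Sen (IR) to 31.5, 19.6 and 33.9 CPM in the combination (log2 fold change 4.30). UNC5B, a netrin receptor, rose by 4.43, ADM2, a peptide of the adrenomedullin family, by 4.28 and the potassium channel genes KCNT2 and KCNG1 by 4.38 and 3.82 on the log2 scale. FAM129A, a stress-induced gene also named NIBAN1, was at 16.2, 16.7 and 16.3 CPM in Sen (IR) and 266, 248 and 272 CPM in the combination. FAM167A and the transcript AC117402.1 rose by 4.37 and 4.82. The mean of AC117402.1 was 29.3 CPM with acetate but no mtDNA and 0.702 CPM with mtDNA but no acetate, next to 1.17 CPM in Sen (IR). PSAT1, ASNS and TRIB3 completed the set and are described with their pathway.

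**Figure D2:**
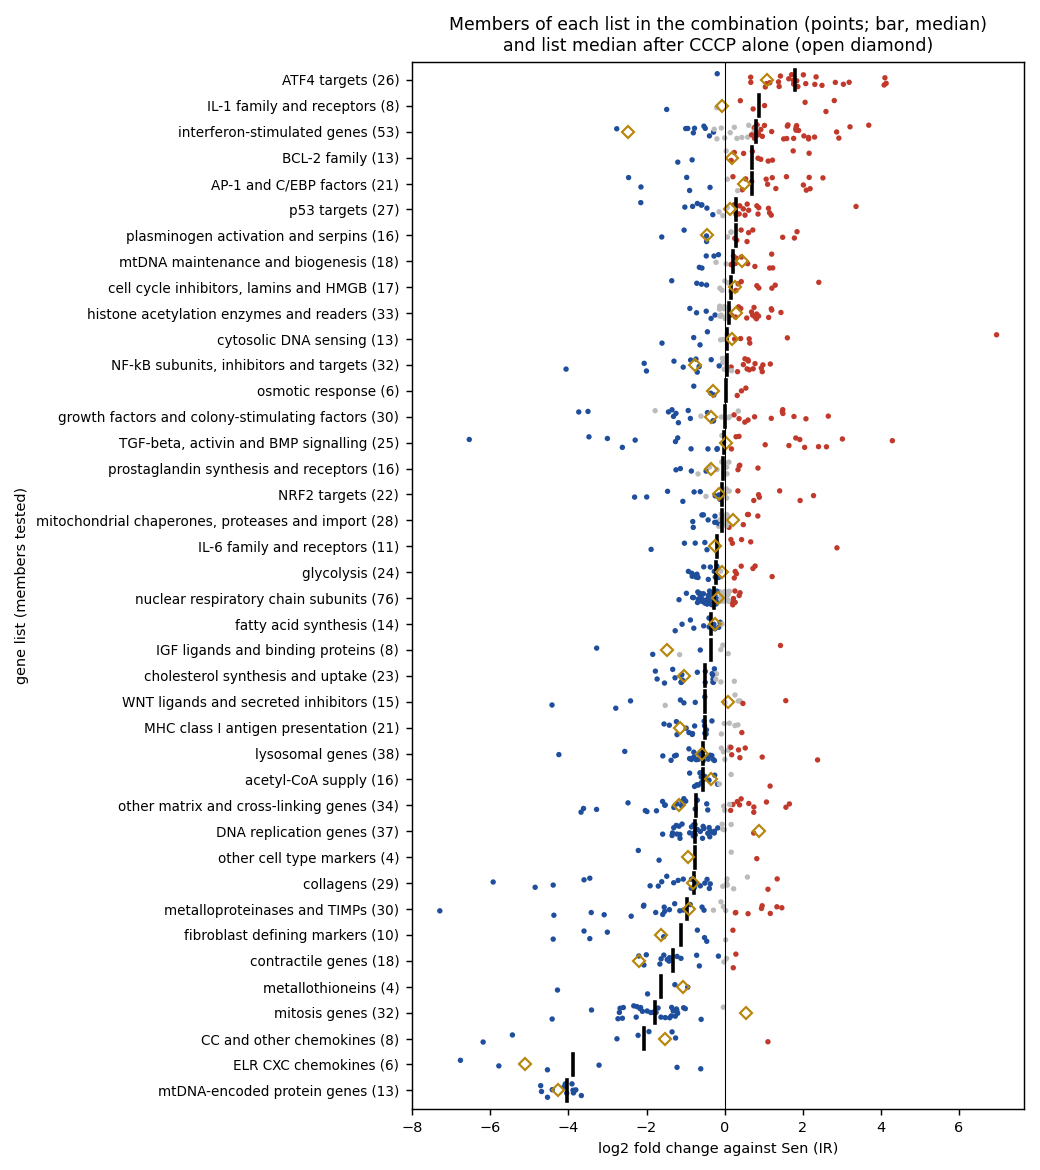
Each row is a gene list with at least 4 members tested, each point is the log2 fold change of a member in the combination against Sen (IR) (red higher, blue lower, grey not called), the black bar is the median of the list and the open diamond its median after CCCP alone. ATF4 targets sit to the right of 0, ELR chemokines, mitosis genes and mtDNA-encoded genes to the left, and the interferon-stimulated genes straddle 0 with a median of 0.81.

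Transcripts of mtDNA itself remained low. All 13 protein-coding mtDNA genes tested were lower in the combination, with a median log2 fold change of -4.05 against -0.04 over all genes (-4.98 without replicate 2). Their share of counts was 1.94, 1.75 and 2.64% in Sen (IR) and 0.0640, 0.237 and 0.0624% in the combination. The difference of means was -1.99 percentage points, and the exact two-sided permutation test gave p = 0.1, the smallest that 3 against 3 allows. The share was 0.122 ± 0.0116% after CCCP alone (SD, n = 3), below combination replicate 2 and above replicates 1 and 3. Without replicate 2, all 13 genes were lower than with CCCP alone, with a median log2 fold change of -0.78, whereas with all libraries the median was 0.20 and edgeR called 0 of the 13, with 0 at an unadjusted p under 0.05. MT-ND6, a subunit of complex I, was at 896, 801 and 1144 CPM in Sen (IR) and 17.8, 76.1 and 16.7 CPM in the combination (log2 fold change -4.71, or -5.78 without replicate 2). These genes have near-identical nuclear copies, so their counts are uncertain. Genes that maintain mtDNA had 11 of 18 higher and 5 lower, beside 32.2% and 34.7% of all genes. Among them TWNK, the mtDNA helicase, was at 1.21. Mitochondrial chaperones, proteases and import genes had 5 of 28 higher, 9 lower and 19 alike, but 19 higher and 5 lower under log2(TPM + 1). HSPA9, the mitochondrial Hsp70, rose from 375, 378 and 324 CPM in Sen (IR) to 659, 638 and 647 CPM in the combination. The nuclear subunits of the respiratory chain differed little: of 76, 7 were higher and 48 lower, and 47 were alike within ±0.5, with a median of -0.27. Under log2(TPM + 1) 25 were higher and 16 lower and the median was 0.02.

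Some cytokine genes were within 2-fold of the Sen (IR) level and others were well above it. CXCL8, or interleukin 8, which attracts neutrophils, was at 626, 703 and 843 CPM in Sen (IR) and 512, 409 and 501 CPM in the combination, 65.5% of the Sen (IR) mean, with a log2 fold change of -0.61 ± 0.11 (SE, adjusted p = 3.4e-05). All 3 combination libraries were below the lowest Sen (IR) library, and the mean after CCCP alone was 1.85%. IL6, the pleiotropic interleukin 6, was at 364, 384 and 327 CPM in Sen (IR) and 198, 256 and 185 CPM in the combination, a log2 fold change of -0.75 ± 0.11 (SE, adjusted p = 1.8e-06). Its mean was 59.4% of that in Sen (IR), compared with 5.08% after CCCP alone. Interleukin 1 genes lay above the Sen (IR) level. IL1A was at 7.7, 10.4 and 7.34 CPM in Sen (IR) and 48.7, 58.3 and 45.8 CPM in the combination, a log2 fold change of 2.60 ± 0.11 (SE, adjusted p = 1.2e-14). IL1B was at 30, 31.9 and 30.9 CPM in Sen (IR) against 61.9, 68.4 and 58.4 CPM in the combination (log2 fold change 1.02). Among the lists, 6 of 8 members of the IL-1 family and its receptors were higher and 1 lower, while the IL-6 family had 5 higher and 5 lower of 11 (5 and 4 under log2(TPM + 1)). IL11, a relative of IL6, rose by 2.88 and LIF, leukaemia inhibitory factor, fell with a log2 fold change of -1.88.

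The neutrophil-attracting chemokines carry an ELR motif before a CXC motif and lie in a cluster on chromosome 4. Those other than CXCL8 remained lower than in Sen (IR), with log2 fold changes from -6.77 for CXCL1 to -1.22 for CXCL2. All 6 of the family tested, CXCL8 included, were lower (34.7% of all genes), with a median log2 fold change of -3.88. None overlapped between groups, as for 66.4% of all genes. Against CCCP alone 5 were higher and 1 lower (30.3% and 31.4% of all genes), with a median of 2.79. CXCL1 was at 141, 152 and 127 CPM in Sen (IR) and 0.844, 2.01 and 1.19 CPM in the combination, 0.962% of the Sen (IR) mean (log2 fold change -6.77 ± 0.17 (SE, adjusted p = 1.9e-18)). CXCL5 was at 122, 132 and 121 CPM in Sen (IR) against 6.24, 5.37 and 4.34 CPM in the combination (log2 fold change -4.54). CXCL6, CXCL3 and CXCL2 had log2 fold changes of -5.78, -3.22 and -1.22. The gap between CXCL8 and CXCL1 in log2 fold change was thus wide although both were abundant in Sen (IR). Their promoters are shown because they differ in an exact match to the consensus κB site, the DNA element bound by NF-κB. These windows run from 250 bases before to 50 after the RefSeq start on GRCh38.p14, plus strand, with matches in capitals.
CXCL1, chr4:73869143-73869442: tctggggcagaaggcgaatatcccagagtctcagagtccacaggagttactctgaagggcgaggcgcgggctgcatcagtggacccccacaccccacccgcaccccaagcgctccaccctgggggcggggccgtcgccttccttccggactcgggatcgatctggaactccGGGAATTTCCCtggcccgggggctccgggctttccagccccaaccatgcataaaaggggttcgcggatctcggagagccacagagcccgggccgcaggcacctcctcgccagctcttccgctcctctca
CXCL8, chr4:73740319-73740618: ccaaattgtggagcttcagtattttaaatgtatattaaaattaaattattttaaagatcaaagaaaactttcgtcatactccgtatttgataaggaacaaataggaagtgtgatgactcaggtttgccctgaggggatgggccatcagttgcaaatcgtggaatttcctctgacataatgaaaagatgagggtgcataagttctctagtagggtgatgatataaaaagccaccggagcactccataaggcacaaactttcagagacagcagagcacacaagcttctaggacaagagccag
In CXCL1 the capitals are a pair of overlapping matches that begin 79 and 78 bases before the start. Searched on both strands, the consensus κB site was found in 5 of 7 promoters of this chemokine family and in 10.8% of 27305 promoters, 1 per symbol. The CXCL8 window holds no exact match, but its stretch tggaatttcc differs from the consensus at 1 base. The search says nothing of whether NF-κB binds there, and a link to the levels was not tested.

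CC chemokines fell too. CCL2, the main attractant of monocytes (chr17:34255274-34257208), was at 239, 266 and 214 CPM in Sen (IR) and 2.45, 5.45 and 2.38 CPM in the combination, a log2 fold change of -6.19 ± 0.21 (SE, adjusted p = 2.1e-16). In Prol cells its mean was 37.4 CPM, above all 3 combination libraries. CCL20, which attracts CCR6-positive cells, was at 14.8, 19.9 and 16 CPM in Sen (IR) against 2.91, 2.91 and 1.61 CPM in the combination (log2 fold change -2.76). Of the 8 CC and other chemokines tested, 7 were lower and 1 higher. The higher one was CCL5, at 0.446, 0.614 and 0.896 CPM in Sen (IR) and 1.06, 2.38 and 0.805 CPM in the combination, and its call was lost without combination replicate 2 (log2 fold change 0.57, from 1.11) or without Sen (IR) replicate 1 (0.86). CXCL10, an interferon-inducible chemokine, was at 341, 343 and 313 CPM in Sen (IR) and 52, 229 and 53.8 CPM in the combination, so all 3 combination libraries were lower but replicate 2 was over 4-fold above the others (log2 fold change -1.59 ± 0.37 (SE, adjusted p = 0.00065); -2.65 without replicate 2).

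**Figure D3:**
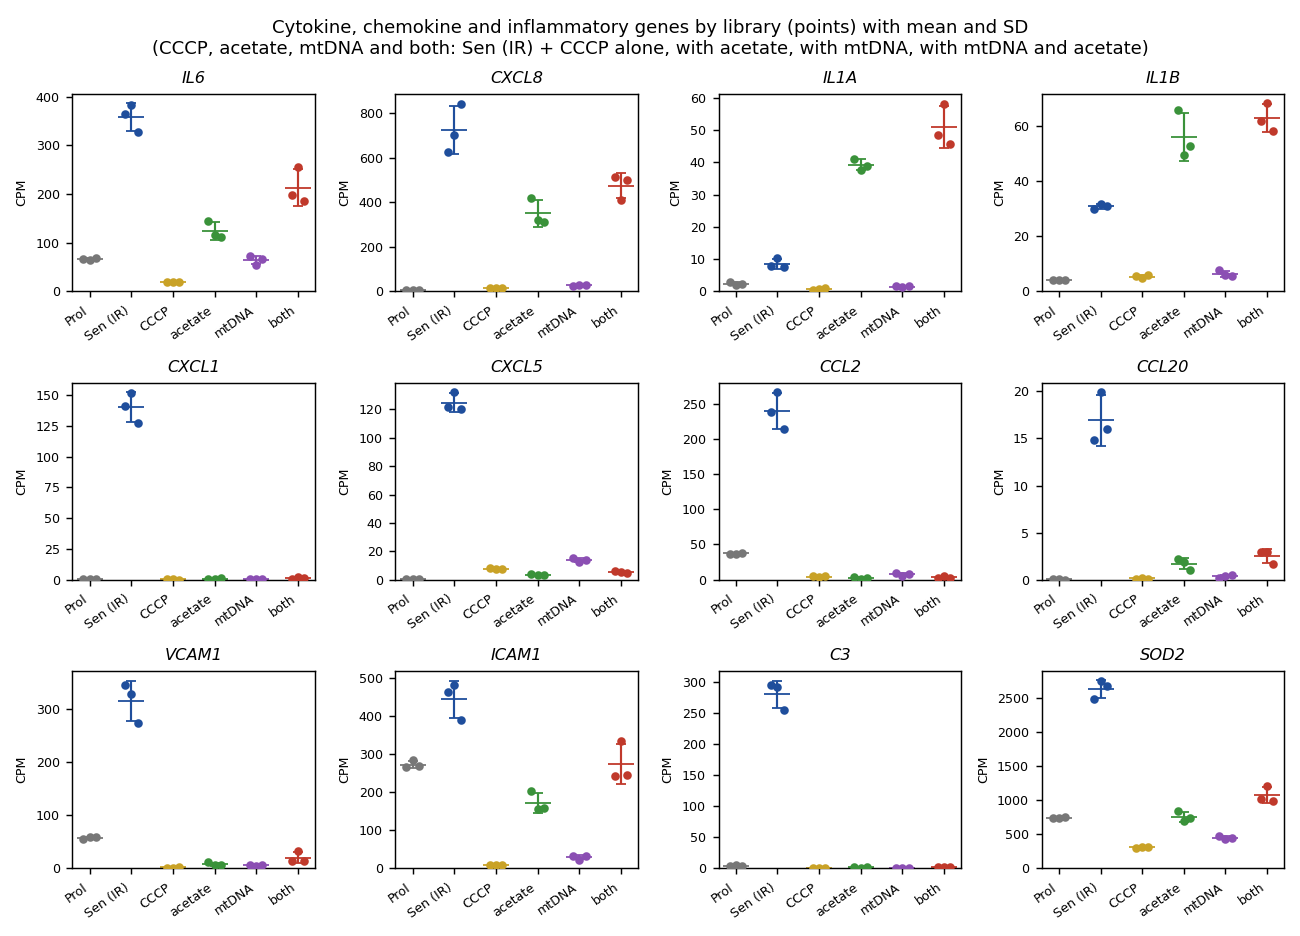
The 12 panels give CPM on the y axis for each of the 6 groups on the x axis, with 3 points per group, the mean as a bar and the SD as whiskers. IL1A and IL1B are higher in the combination than in Sen (IR), IL6 and CXCL8 lie below Sen (IR) and above CCCP alone, and CXCL1, CCL2, VCAM1 and C3 are near the bottom of their axes in the combination.

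Genes of the NF-κB pathway were found on both sides of the Sen (IR) level. Of 32 subunits, inhibitors and targets tested, 14 were higher and 11 lower (32.2% and 34.7% of all genes), and 9 were alike within ±0.5, with a median of 0.06, while against CCCP alone 28 were higher and 2 lower (30.3% and 31.4% of all genes). The latter comparison shares the combination libraries with the former. VCAM1, an adhesion molecule for leukocytes, was at 345, 329 and 273 CPM in Sen (IR) and 13.3, 31.6 and 13.1 CPM in the combination, a log2 fold change of -4.06 ± 0.24 (SE, adjusted p = 1.4e-12). ICAM1, a related adhesion molecule, was at 463, 479.8 and 388 CPM in Sen (IR) against 242, 333 and 245 CPM in the combination (log2 fold change -0.70). SOD2, the mitochondrial superoxide dismutase, fell by 1.30 on the log2 scale, and TNFAIP3, an inhibitor that NF-κB induces, rose by 1.17. NFKBIA, the inhibitor IκBα, was at 69.5, 71.2 and 59.6 CPM in Sen (IR) and 64.2, 69.3 and 59.3 CPM in the combination, and its 95% interval of -0.20 to 0.09 lay within the margin for alike genes. Of 21 AP-1 and C/EBP factors, 14 were higher and 5 lower, among them CEBPG at 2.52 and CEBPD at -2.14.

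More interferon-stimulated genes were higher than lower in the combination, by a margin that narrowed without replicate 2. Of 53 genes, 32 were higher and 9 lower (32.2% and 34.7% of all genes), with a median log2 fold change of 0.81. Without replicate 2, an alternative added after the data were seen, 24 were higher and 17 lower and the median was 0.11. Summed over the 53 genes, the level was 4411, 4529 and 4320.1 CPM in Sen (IR) and 5224, 13194 and 5503 CPM in the combination. Replicate 2 thus lay apart from replicates 1 and 3, which were both above all 3 Sen (IR) libraries. In replicates 1, 2 and 3 of the combination, 25, 46 and 29 of the 53 genes were above every Sen (IR) library and 21, 3 and 19 below every one. The summed level with CCCP and mtDNA but no acetate was 14467, 10477 and 13210 CPM, and with CCCP alone 1576 to 1685 CPM.

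OASL, an antiviral protein related to oligoadenylate synthetases, had the largest rise of the list. It was at 2.77, 2.69 and 2.31 CPM in Sen (IR) and 17.3, 69.6 and 16.2 CPM in the combination, a log2 fold change of 3.70 ± 0.43 (SE, adjusted p = 9.9e-08). The groups did not overlap, and the value without replicate 2 was 2.69. HERC5, which attaches ISG15 to proteins, was at 4.27, 5.1 and 5.24 CPM in Sen (IR) against 24.4, 90.9 and 21.1 CPM in the combination (log2 fold change 3.21, 2.24 without replicate 2). RSAD2, viperin, was at 6.67, 6.6 and 6.13 CPM in Sen (IR) against 27.4, 89.7 and 27.4 CPM in the combination, and MX1, an antiviral GTPase, at 38.7, 43.6 and 37.5 CPM in Sen (IR) against 61.8, 325 and 62 CPM in the combination, with replicate 2 the highest library for both, and log2 fold changes of 2.87 and 1.90 that were 2.08 and 0.64 without it. IFIT2, an RNA-binding antiviral protein, was at 45, 41.8 and 41.8 CPM in Sen (IR) against 127, 732 and 125 CPM in the combination (log2 fold change 2.93, 1.55 without it). Members were not uniform. GBP2, an interferon-gamma inducible GTPase, fell with a log2 fold change of -2.76 (60.3, 54.3 and 50.2 CPM in Sen (IR) against 5.86, 13.3 and 5.85 CPM in the combination). IFI6, another interferon-induced gene, had a log2 fold change of -0.80 ± 0.27 (SE, adjusted p = 0.0138), a call that was lost without combination replicate 1 (-0.48) or 3 (-0.51), while without replicate 2 the value was -1.59. The IFI6 call was also lost with the Wald test of DESeq2 (-0.78) and with only the 6 libraries compared (-0.76). For OAS1, OAS2 and BST2 no difference passed with all libraries, and without replicate 2 each was lower. OAS1 and BST2 were instead called higher without replicate 1, without replicate 3 and with no filter on low counts. Each was below every Sen (IR) library in replicates 1 and 3 and above every one in replicate 2, as OAS1 shows at 12.8, 14.5 and 14.6 CPM in Sen (IR) and 7.55, 55.7 and 9.52 CPM in the combination.

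IFNB1, interferon beta, was at 0 counts in all 3 Sen (IR) libraries and at 4, 30 and 6 counts in combination replicates 1, 2 and 3. Set against a floor of 3 counts over the Sen (IR) group it was at least 16.8-fold higher, and at least 5.19-fold without replicate 2. It was at 0 also in all libraries of Prol, CCCP alone and acetate alone, and at 25, 32 and 28 counts with mtDNA alone. Of the DNA-sensing genes, IFI16, a nuclear DNA sensor, rose with a log2 fold change of 1.61 ± 0.13 (SE, adjusted p = 4.4e-10), while TMEM173, which encodes STING, fell from 24.2, 25.3 and 20.5 CPM in Sen (IR) to 12.7, 15.9 and 12 CPM in the combination (log2 fold change -0.79). MHC class I presentation genes were lower: 15 of 21 fell and 1 rose, with a median of -0.51, and without replicate 2 19 fell. B2M, the light chain of class I molecules, was at 1514, 1473 and 1516 CPM in Sen (IR) against 755, 987 and 795 CPM in the combination (log2 fold change -0.83), and CALR, a chaperone of their assembly, had a log2 fold change of -1.55.

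**Figure D4:**
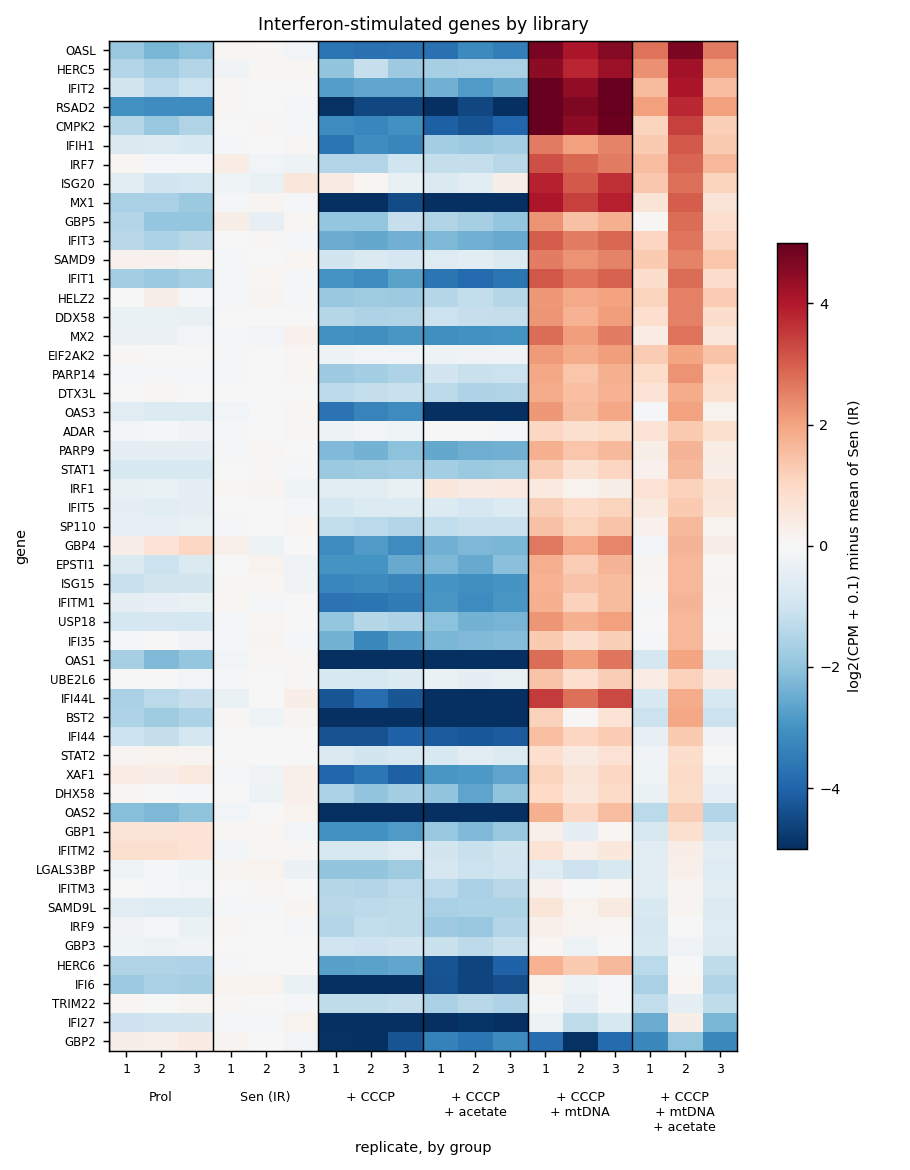
Rows are the 53 interferon-stimulated genes in order of their log2 fold change, columns are the 18 libraries by group, and colour is log2(CPM + 0.1) minus the mean of Sen (IR). Colours end at ±5. In the combination most rows are redder in replicate 2 than in replicates 1 and 3, and the columns of CCCP alone and acetate alone are mostly blue, with exceptions such as IRF1 with acetate.

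Most extracellular matrix and contractile genes were lower in the combination than in Sen (IR). Of 29 collagen genes, 21 were lower and 2 higher (34.7% and 32.2% of all genes), with a median log2 fold change of -0.77. COL1A1, a chain of the main fibrillar collagen, was at 7229, 7304 and 5860.0 CPM in Sen (IR) and 562, 712 and 587 CPM in the combination, a log2 fold change of -3.45 ± 0.09 (SE, adjusted p = 6e-18). COL3A1 was at 2677, 2524 and 2079 CPM in Sen (IR) against 84.9, 169 and 94.4 CPM in the combination (log2 fold change -4.39), and COL5A3 fell with a log2 fold change of -5.93. By contrast, COL6A3, of the beaded filaments, rose from 2609.8, 2484 and 2618 CPM in Sen (IR) to 6072, 6735 and 6830.2 CPM in the combination, and COL12A1 had a log2 fold change of 1.11. Contractile genes of smooth muscle type were lower too: of 18 contractile genes, 14 were lower and 2 higher, with a median of -1.31. ACTA2, smooth muscle actin, was at 467, 466 and 417 CPM in Sen (IR) and 134, 240.3 and 135 CPM in the combination (log2 fold change -1.41 ± 0.15 (SE, adjusted p = 1.7e-08)), and TAGLN, transgelin, changed by -1.66. After CCCP alone ACTA2 was at 38.6 CPM. IGFBP3, a binding protein of insulin-like growth factors, fell from 6002, 5950.4 and 4487 CPM in Sen (IR) to 486, 729.7 and 480.2 CPM in the combination.

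Proteases of the SASP went in both directions. Of 30 metalloproteinases and inhibitors of them, 18 were lower and 8 higher (34.7% and 32.2% of all genes). MMP3, stromelysin, was at 73.8, 76.3 and 69.2 CPM in Sen (IR) against 16.4, 10.3 and 14.5 CPM in the combination (log2 fold change -2.39), but MMP1, interstitial collagenase, was at 517, 526 and 424 CPM in Sen (IR) against 778, 691 and 757 CPM in the combination (log2 fold change 0.60). The plasminogen activators were both above Sen (IR). PLAU, urokinase, rose from 2194, 2156 and 1725 CPM in Sen (IR) to 7078, 6983 and 6929 CPM in the combination, a log2 fold change of 1.79 ± 0.07 (SE, adjusted p = 1e-15), and PLAT, tissue plasminogen activator, by 1.49 on the log2 scale. Growth factor genes had 12 members higher and 12 lower of 30, beside 32.2% and 34.7% of all genes, with AREG and EREG, ligands of the EGF receptor, at 2.66 and 2.09, FGF2 at 1.78 and EGF at -3.50. Within TGF-β, activin and BMP signalling 12 were higher and 11 lower of 25 (13 and 8 under log2(TPM + 1)), and INHBB, an activin subunit, changed by -3.48 on the log2 scale.

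Other secreted and signalling families were mixed. Of 15 WNT ligands and secreted inhibitors, 7 were lower and 2 higher, against 6 and 6 under log2(TPM + 1). WNT2, a WNT ligand, was at 9.27, 8.33 and 7.68 CPM in Sen (IR) and 0.3, 0.492 and 0.42 CPM in the combination, with no overlap, while DKK3, of the Dickkopf family, was at 1161, 1164 and 904 CPM in Sen (IR) against 1479.7, 1530.3 and 1465 CPM in the combination (log2 fold change 0.47). Of 8 IGF ligands and binding proteins, 3 were lower and 1 higher, beside 34.7% and 32.2% of all genes. The higher one was IGF2, insulin-like growth factor 2, from 157, 169.5 and 177 CPM in Sen (IR) to 484, 365 and 507 CPM in the combination. IGFBP5, the most abundant of this list, was at 6299, 6338 and 6834 CPM in Sen (IR) and 6013, 8264 and 6499 CPM in the combination and did not pass (interval -0.08 to 0.27). It passed without combination replicate 1 (log2 fold change 0.21) and on log2(TPM + 1), and was at -0.05 without replicate 2. Among 16 prostaglandin genes, 4 were higher and 4 lower, beside 32.2% and 34.7% of all genes. Under log2(TPM + 1) 8 were higher and 2 lower. Matrix genes other than collagens had 20 of 34 members lower and 11 higher. SPARC, a collagen-binding glycoprotein, fell from 5521, 5524 and 4387 CPM in Sen (IR) to 1469, 1704 and 1432 CPM in the combination, a log2 fold change of -1.74 ± 0.08 (SE, adjusted p = 1.3e-14), and VCAN, the proteoglycan versican, rose from 135, 129 and 149 CPM in Sen (IR) to 410.0, 450.2 and 444 CPM in the combination, one of 1.66 ± 0.05 (SE, adjusted p = 1.3e-16).

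Regulators of cell death were mostly higher. Of 13 BCL-2 family genes tested, 10 rose and 2 fell (32.2% and 34.7% of all genes), with a median log2 fold change of 0.71. MCL1, an inhibitor of apoptosis, was at 455, 461 and 422 CPM in Sen (IR) and 864, 827 and 854 CPM in the combination (log2 fold change 0.93 ± 0.05 (SE, adjusted p = 9.3e-13)). BMF, which promotes apoptosis, also rose, from 4.84, 4.57 and 5.58 CPM in Sen (IR) to 23.6, 17.3 and 26 CPM in the combination, and BID, another promoter of it, fell from 70.3, 75 and 71.5 CPM in Sen (IR) to 31.8, 32.3 and 30.3 CPM in the combination. The list thus held rises among inhibitors and promoters alike.

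Amino acid response genes were well above the Sen (IR) level. They are induced by ATF4, a factor translated when the integrated stress response is active, and serve amino acid synthesis and transport. Of 26 tested, 25 were higher and 1 lower, STC2, whose log2 fold change of -0.19 lost its call when any of 4 single libraries was left out (-0.13 to -0.15) and turned sign under TPM scaling, with a median of 1.81 against -0.04 over all genes. ASNS, asparagine synthetase, was at 21.2, 20.3 and 17.9 CPM in Sen (IR) and 352, 324 and 351 CPM in the combination, a log2 fold change of 4.11 ± 0.06 (SE, adjusted p = 2.1e-22). The groups were far apart. TRIB3, a pseudokinase that feeds back on ATF4, was at 5.45, 5.49 and 6.61 CPM in Sen (IR) against 101, 103 and 93.2 CPM in the combination (log2 fold change 4.09), and PSAT1, of serine synthesis, rose 17.6-fold, from 45.1, 41.4 and 34.2 CPM in Sen (IR) to 733, 673 and 728 CPM in the combination. The promoter of ASNS is shown, in its own transcript's direction, with a match to the core of the element bound by C/EBP and ATF factors (TGATGNAA, both strands) in capitals, 68 bases before the start.
ASNS, chr7:97872359-97872658, minus strand: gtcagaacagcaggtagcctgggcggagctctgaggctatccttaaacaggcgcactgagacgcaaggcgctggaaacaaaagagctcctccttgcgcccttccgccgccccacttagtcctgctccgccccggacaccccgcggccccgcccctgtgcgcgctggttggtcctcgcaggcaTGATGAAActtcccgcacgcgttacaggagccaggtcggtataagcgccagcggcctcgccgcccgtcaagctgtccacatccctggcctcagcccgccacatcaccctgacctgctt
This core was found in 6 of 22 promoters of the list present in the table and in 3.67% of all promoters.

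CHAC1, which degrades glutathione, was at 10, 10.8 and 8.13 CPM in Sen (IR) and 84.8, 81.7 and 72.7 CPM in the combination (log2 fold change 3.05). SLC7A11, the cystine transporter, was at 149, 161 and 160.3 CPM in Sen (IR) against 1150.3, 996 and 1213 CPM in the combination (log2 fold change 2.84). Against CCCP alone 24 of the 26 were higher and 1 lower in the combination (30.3% and 31.4% of all genes), against acetate alone 21 were higher (6.57%), and against mtDNA alone 13 were higher and 6 lower (27.4% and 29.9%). The median against Sen (IR) was 1.09 with CCCP alone and 1.84 with mtDNA alone, comparisons that share the Sen (IR) libraries. ATF4 itself rose by 1.69 from 173, 169 and 155 CPM in Sen (IR) to 577, 470.3 and 561 CPM in the combination, and DDIT3, the factor CHOP, by 2.35. NRF2 targets, of the antioxidant response, had 7 of 22 higher and 9 lower, near the 32.2% and 34.7% of all genes, and 14 higher and 6 lower under log2(TPM + 1). NQO1, a quinone reductase, was at 163, 163 and 149 CPM in Sen (IR) against 824, 694 and 787 CPM in the combination (log2 fold change 2.28), TXNRD1, thioredoxin reductase, rose by 1.41, and AKR1C1, an aldo-keto reductase, fell by 2.00 on the log2 scale. TP53I3, a p53-induced quinone oxidoreductase, fell from 46, 45.8 and 41.6 CPM in Sen (IR) to 10.2, 9.47 and 10.4 CPM in the combination. GDF15, a stress-induced cytokine, had the largest rise among 27 p53 targets, of which 16 were higher and 8 lower, from 48.7, 50.5 and 39.2 CPM in Sen (IR) to 539, 420.1 and 472 CPM in the combination.

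Cell division genes were lower in the combination than in intact senescent cells. Of 32 mitosis genes, 31 were lower and the other did not pass, with a median of -1.79 (34.7% of all genes lower), and of 37 DNA replication genes 32 were lower and 1 higher. CCNB1, cyclin B1, was at 35.1, 35.5 and 30.8 CPM in Sen (IR) and 6.37, 7.83 and 6.16 CPM in the combination, a log2 fold change of -2.33 ± 0.10 (SE, adjusted p = 3.7e-15). MKI67, a marker of proliferation, was at 13.8, 14.4 and 17.8 CPM in Sen (IR) against 3.51, 6.23 and 4.66 CPM in the combination, and 58.8, 60.2 and 58.3 CPM in Prol. All 3 combination libraries were below all 3 Sen (IR) libraries for both genes. Against CCCP alone 32 of 32 mitosis genes were lower in the combination (31.4% of all genes), against mtDNA alone 32 were lower (29.9%), and against acetate alone 1 was higher and the others did not pass. After CCCP alone, 18 of the 32 were above Sen (IR) and 3 below (median 0.54), beside 5776 and 5312 of all 16994 genes. DNA replication genes had 34 of 37 above and 1 below (median 0.89). With acetate alone 31 mitosis genes were below Sen (IR) and 0 above (median -1.94), beside 5552 and 5646 of all genes. Replication genes had 32 below and 2 above (median -0.76). These comparisons share the Sen (IR) libraries. LMNB1, lamin B1, fell from 8.9, 9.02 and 7.65 CPM in Sen (IR) to 3.46, 2.95 and 3.54 CPM in the combination (log2 fold change -1.35). KIF20A, a mitotic kinesin, had the lowest log2 fold change of the mitosis list at -4.42, while ECT2, needed for cytokinesis, was at -0.03 with an interval of -0.13 to 0.06. Among 17 cell cycle inhibitors, lamins and HMGB genes 8 were higher and 4 lower (32.2% and 34.7% of all genes). Of the inhibitors, CDKN2B, p15, rose by 2.42, CDKN1A, p21, by 0.83 and CDKN2A, p16, by 0.43. CDKN1A was at 982, 1041 and 950.0 CPM in Sen (IR) against 1817, 1706 and 1751 CPM in the combination, with no overlap.

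**Figure D5:**
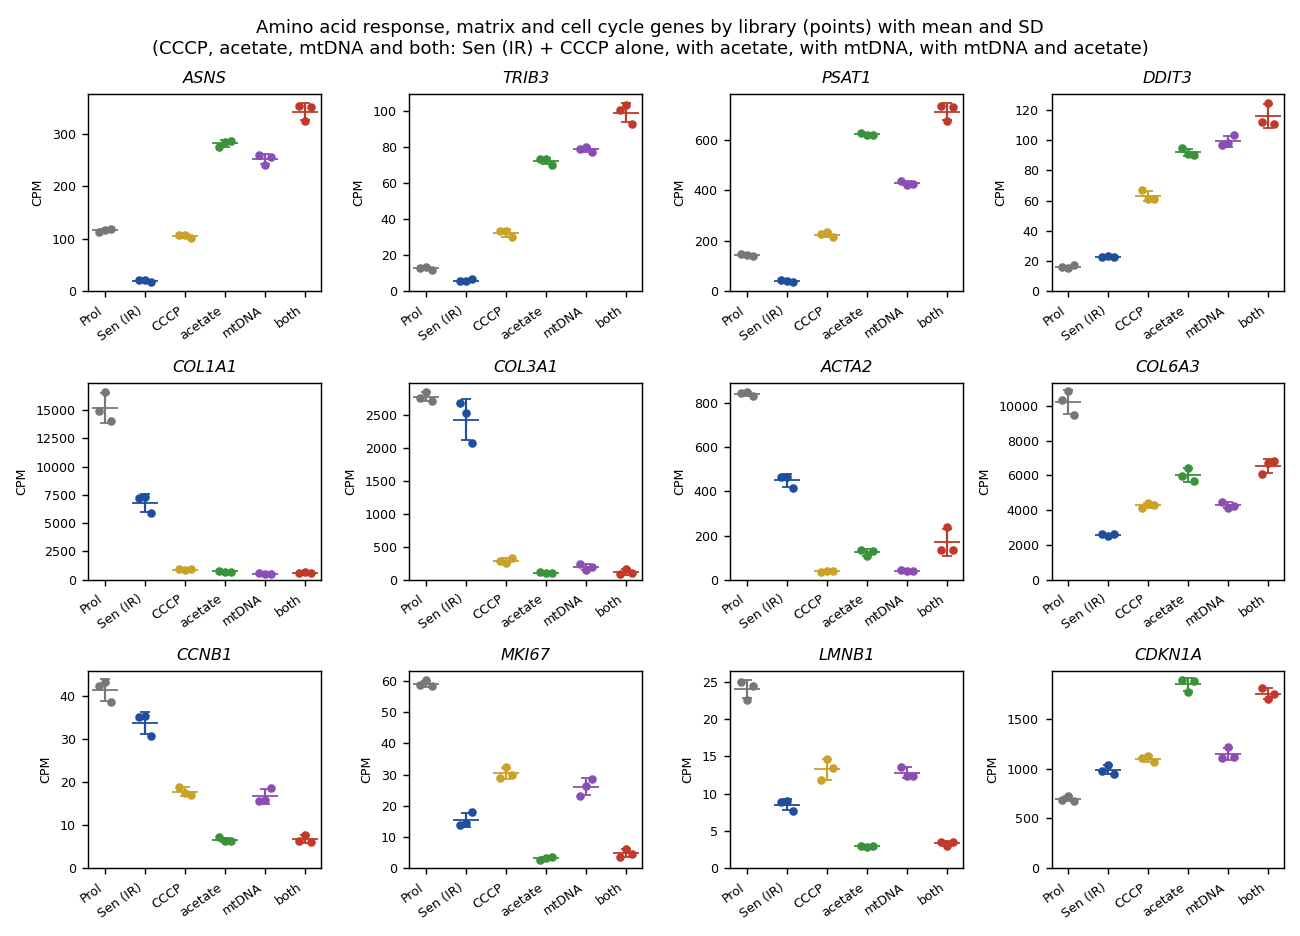
The 12 panels give CPM on the y axis for each of the 6 groups on the x axis, with 3 points per group, the mean as a bar and the SD as whiskers. The top row (ASNS, TRIB3, PSAT1, DDIT3) is highest in the combination, the middle row shows COL1A1, COL3A1 and ACTA2 low and COL6A3 higher than in Sen (IR), and in the bottom row CCNB1, MKI67 and LMNB1 are lower and CDKN1A higher than in Sen (IR).

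Most genes of acetyl-CoA supply and of cholesterol synthesis were lower. Of 16 genes of acetyl-CoA supply, 13 were lower and 1 higher, with a median of -0.56. SLC25A1, the mitochondrial citrate carrier, was at 49.9, 53.2 and 55.7 CPM in Sen (IR) and 36.1, 37.7 and 37.5 CPM in the combination, a log2 fold change of -0.51 ± 0.06 (SE, adjusted p = 3.5e-08). ACLY, which splits citrate into acetyl-CoA, and ACSS2, which makes it from acetate, had log2 fold changes of -0.60 and -0.71, while ACSS3, the mitochondrial synthetase, rose by 1.17. Among 33 histone acetylation enzymes and readers, 16 were higher and 5 lower (32.2% and 34.7% of all genes). Cholesterol synthesis and uptake had 19 of 23 members lower, and the other 4 did not pass. HMGCS1, an enzyme of the mevalonate pathway, and INSIG1, a sterol-regulated inhibitor of it, had log2 fold changes of -1.33 and -1.77. Lysosomal genes had 26 of 38 lower and 7 higher, from CTSS, cathepsin S, at -4.25 to NPC1, a cholesterol transporter, at 2.38, and all 4 metallothionein genes tested were lower. Glycolysis genes had 15 of 24 lower and 7 higher, with GAPDH at 3848, 4120.0 and 3504 CPM in Sen (IR) and 2252, 2054 and 2151 CPM in the combination, and SLC2A3, the glucose transporter GLUT3, at 158, 161 and 143 CPM in Sen (IR) against 373, 322 and 379.8 CPM in the combination. The median of this list, -0.22, turned positive under log2(TPM + 1), with 10 higher and 8 lower. In fatty acid synthesis 11 of 14 were lower, among them ACSL4, an acyl-CoA synthetase, at -1.27, but under log2(TPM + 1) 4 were lower and 4 higher. Of 6 osmotic response genes 3 were higher and 3 lower (3 and 1 under log2(TPM + 1)).

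Differences from the single treatments were tested in the same fit. Set beside acetate alone, 1116 genes (6.57%) stood higher in the combination and 1020 (6%) lower, against mtDNA alone 4664 (27.4%) and 5084 (29.9%), and against CCCP alone 5146 (30.3%) and 5341 (31.4%). Each of these comparisons shares the combination libraries. Of the 53 interferon-stimulated genes, 52 were higher than with acetate alone, 50 without replicate 2, and 3 were higher and 37 lower than with mtDNA alone. Without replicate 2 the latter were 2 and 50, and the median moved from -0.69 to -1.28. IL6 was at 124 ± 18.2 CPM with acetate alone and 64 ± 9.05 CPM with mtDNA alone (SD, n = 3), and the combination was above both by log2 fold changes of 0.78 ± 0.11 (SE, adjusted p = 4e-05) and 1.73 ± 0.11 (SE, adjusted p = 1.6e-11). CXCL8 differed from acetate alone by 0.44 ± 0.11 (SE, adjusted p = 0.00878) and from mtDNA alone by 4.12 ± 0.13 (SE, adjusted p = 2.6e-16). For IL1B the difference from acetate alone was 0.17 ± 0.09 (SE, adjusted p = 0.236), which did not pass, while that from mtDNA alone was 3.32 ± 0.11 (SE, adjusted p = 7.5e-16). C3 and CCL2 did not pass against acetate alone, at 0.22 and 0.69, and against CCCP alone C3 differed by 1.49 ± 0.24 (SE, adjusted p = 1.7e-05) and CCL2 by -0.39 ± 0.27 (SE, adjusted p = 0.23).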

How the data were processed

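Polyadenylated RNA of 18 IMR90 libraries was sequenced by the authors in paired ends, trimmed with Trimmomatic 0.36, aligned to GRCh38 with STAR 2.5.2b and counted per gene with featureCounts (Subread 1.5.2), as the submitters' processing notes list. The authors deposited raw counts per gene, without normalization, and TPM, which are scaled by transcript length. Counting was strand-aware where libraries were strand-specific, per the methods, and whether these were is not given in the sources used here, so reads of a gene and its antisense partner may be mixed. Total counts ranged from 24624886 to 46224280 per library. Floors cover counting error only.

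Groups came from the labels, and 0 columns were left without a sample. With edgeR 4.0.16 (R 4.3.3), the raw counts of all 18 libraries entered a single quasi-likelihood model with 6 group means, with TMM and filterByExpr by group (16994 genes). The standard error is the absolute log2 fold change over the square root of F. A gene was called at a Benjamini-Hochberg adjusted p under 0.05, and was alike where its 95% interval lay inside ±0.5. The 41 gene lists are described by counts and medians, with no test. DESeq2 1.42.0 and limma 3.58.1 served as alternatives, with other filters, scalings, a replicate block and each library left out. The procedure was also run on simulated counts in which few genes changed, as many raised as lowered. Most genes were called in these data, so that run cannot judge the scaling or the calls here.

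The comparison, members and lists were chosen with earlier results of these data known. Named genes were the 12 largest rises and 12 largest falls past the threshold with at least 5 CPM in the higher group and no overlap, the largest called rise and fall among members at 1 CPM or more and the member with the highest TPM of each list, all members of lists of 7 or fewer, and 10 genes that the study measured singly. Others, such as IFNB1, COL1A1, IFIT2, HERC5 and MKI67, were chosen after their values were seen. Some further genes are not reported here.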

Additional observations from a re-analysis of the deposited data

How the results depend on the processing

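Counts of genes in the comparison with Sen (IR) stayed within 1.5 times of those reported with the size factors or Wald test of DESeq2, no filter on low counts, the 6 libraries alone and mtDNA-encoded genes left out. Others moved: genes lower were 3597 in limma on log2(TPM + 1) and 3594 on log2(TPM + 0.1). Genes at least 2-fold higher were 2449 on log2(TPM + 0.1) and 896 with libraries centred on their median. Genes at least 2-fold lower were 693, 1288 and 1277 on log2(TPM + 1), log2(TPM + 0.1) and the centred scale, and 1174 with at least 10 counts in every library, which tests fewer genes. DESeq2 with a nominal p under 0.05 and an absolute log2 fold change over 0.5 gave 3511 higher. The causes of these moves were not tested beyond the number of genes in that filter. Leaving out 1 library gave 5181 to 5417 higher and 5191 to 5765 lower. The difference in mtDNA share was -10.0 percentage points of TPM. On the log2(TPM + 1) and log2(TPM + 0.1) scales the sign turned for ECT2 (0.26 and 0.26), HDAC1 (0.28 and 0.28), IER3 (0.29 and 0.29), NFKBIA (0.24 and 0.24) and PCNA (0.23 and 0.23). These were near 0 in the counts and passed as higher on both TPM scales. The sign also turned for SGK1 (0.015 and 0.016) and STC2 (0.11 and 0.11), which were called lower in the counts and did not pass on the TPM scales. With 1 library left out, BST2 ranged from -1.11 to 1.09, OAS1 from -0.72 to 1.23 and OAS2 from -1.42 to 0.44, with the lowest value without combination replicate 2. Same-numbered libraries had correlations of deviations from the group mean of 0.0010, 0.035 and 0.081, and differently numbered ones -0.062 to 0.031. With so few libraries per group these values cannot decide whether the replicate numbers pair the samples. With the replicate block 5470 genes were higher and 5876 lower. Depth limits genes with few counts, such as SLCO2B1 in the combination.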
